A study of Mus musculus with 32 samples.

Results

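The ribosome-bound mRNA of cholinergic spinal cord neurons was compared between 12-month-old and 3-month-old female (XX) mice, the step from young adulthood to middle age. The comparison holds 9 of the 32 libraries of the series, chosen by age and sex alone: 5 libraries from the older and 4 from the younger females, each from 1 animal. All mice carried Chat-Cre and the RiboTag allele, on a mixed genetic background, and none was given an agent. In these mice Cre driven by Chat, the gene of choline acetyltransferase, switches the ribosomal protein Rpl22 to an HA-tagged form, and tagged ribosomes were pulled down with an antibody against HA from whole frozen spinal cord. The tag is therefore carried by every Chat-expressing cell of the cord, motor neurons and cholinergic interneurons alike, and untagged RNA of other cells that stays on the beads is sequenced with it. Reads were counted per gene, 17481 genes were tested, those whose count averaged 5 or more over the libraries, and the model was fitted on the 31 libraries of 7 groups of sex and age, with the other 22 libraries used for the spread between animals. The comparison was then repeated without replicate 4 of 3 months, in which genes of the response to axon injury stood far above the other 3 libraries, and without replicates 1 and 2 of 12 months, which held most of the counts of microglial genes.

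Spinal motor neurons are the large cholinergic cells that drive skeletal muscle. Their output is set by fast glutamate, GABA and glycine inputs, by slower serotonin, noradrenaline and acetylcholine inputs that raise or lower excitability, and by potassium, calcium and HCN channels that shape firing. Their long axons depend on kinesin and dynein motors, and damage to the axon turns on a known set of genes that includes Atf3, Sprr1a and Npy. Microglia, the resident immune cells of the cord, make complement C1q and the receptors Trem2 and Cx3cr1.

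Total counts lay between 15182141 and 17995911 at 3 months and between 14366779 and 26229439 at 12 months. The 12-month mean was higher (23055127 against 16648753, two-sided exact permutation test over 126 arrangements, p = 0.0476, the smallest possible being 0.00794). Replicate 3, with 14366779 counts, was the 12-month library closest to the 3-month totals, so the ages could not be compared within one range of totals. Values below are normalized counts, that is counts scaled with TMM factors to a common library size of 20952108, and fold changes are on the log2 scale, 12 against 3 months, with the standard error (SE) of the fit. At that scale, 3 counts in a 3-month library, taken as the floor, are 3.73 normalized counts on average. The summed count of 4 Y-linked genes was at most 17.0 in the 9 libraries and at least 1909 in each of the 17 male libraries, as the labels require.

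The markers of cholinergic motor neurons were present in all 9 libraries, with spread between the libraries of 12 months. Chat itself had 822, 999.6, 823 and 657 normalized counts at 3 months and 841, 196, 171, 919.9 and 276 at 12 months. Replicates 2, 3 and 5 of 12 months lay below all other libraries, and replicates 1 and 4 within the 3-month range (log2 fold change -0.77 with an SE of 0.58, adjusted p = 0.737 by edgeR). Slc18a3, the vesicular acetylcholine transporter gene that lies inside the Chat locus, had 14602 ± 1596 (SD, n = 4) in the young and 11630.5 ± 3061 (SD, n = 5) in the older mice, and its lowest values, 8314 and 8781, were again in replicates 2 and 3. Slc5a7, the high-affinity choline transporter, had 13509.8, 18334, 17093 and 15944 at 3 months and 12815, 11502, 11014, 15194 and 13447 at 12 months (log2 fold change -0.34, SE 0.16, unadjusted p = 0.0372 and adjusted p = 0.737 by edgeR). All 6 genes of the cholinergic machinery list had a negative log2 fold change, with a median of -0.34, and none passed the threshold. The motor neuron transcription factors did not share that direction. Mnx1, which specifies motor neurons, had 1663 ± 264 (SD, n = 4) and 1757 ± 332 (SD, n = 5), and Isl1, a LIM homeobox factor of motor neurons, had 525 ± 91.9 and 508 ± 92.2. Prph, the intermediate filament peripherin, had 29491 ± 4481 and 32593 ± 5923, and the 14 transcription factors tested had a median log2 fold change of 0.04.

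Over all genes, no gene reached an adjusted p under 0.05 with edgeR's quasi-likelihood test, 0% of 17481. The smallest adjusted p was 0.339, for Ccl3, a gene with no count at 3 months. Ccl3 passed the filter on low counts only through groups where it is high (mean counts of 10.6 in 12-month-old females, 6.6 and 10.4 in 18- and 24-month-old males and at most 2.6 in the other 4 groups), so a difference from 3 months was built into its being tested. With an unadjusted p under 0.05 there were 1041 genes, 597 higher at 12 months (3.42% of those tested) and 444 lower (2.54%). In 214 genes (1.22%) every 12-month library lay above every 3-month library, and in 268 genes (1.53%) every one lay below. The median log2 fold change of all genes was -0.0019. DESeq2's Wald test gave 8 genes an adjusted p under 0.05, 0.0458% of those tested and all higher at 12 months, and limma voom with sample quality weights gave 2, Ccl3 and Gdpd3. On data simulated for this comparison over 17481 genes, edgeR recovered 77% of genes changed by 1 log2 unit and 98% of genes changed by 2. The simulated counts were drawn independently for each gene and library, so they hold no shift of a library shared by many genes. Genes with low counts were not among those changed. These shares therefore do not give the power in the libraries at hand, which was not tested.

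Without replicate 4 of 3 months, again no gene passed the adjusted threshold, and the smallest adjusted p was 0.317. There were then 1210 genes with an unadjusted p under 0.05, 685 higher (3.92%) and 525 lower (3%). Of the 1041 genes of the whole comparison, 1040 kept their direction and 803 kept an unadjusted p under 0.05. The genes below are therefore described by their values in each animal, and none of them is called changed by edgeR.

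Among the genes lower at 12 months, the 10 with the smallest unadjusted p, a mean count of at least 50 and no overlap between the ages include receptors, signalling proteins and a ubiquitin ligase. Htr1b encodes the serotonin receptor 1B, a Gi-coupled receptor known from axon terminals, and lies at chr9:81628291-81633828 of GRCm38 on the minus strand. It had 161, 129, 156 and 125 normalized counts at 3 months and 101, 81.0, 75.7, 112 and 81.3 at 12 months. The highest 12-month library stayed below the lowest 3-month library (log2 fold change -0.66, SE 0.20, unadjusted p = 0.00246, adjusted p = 0.559), and the value was -0.72 without replicate 4 of 3 months. The counting could share reads of Htr1b with D430036J16Rik, which overlaps it.

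March4, a membrane-bound E3 ubiquitin ligase, had 189, 190.0, 146 and 136 at 3 months against 133, 110.5, 83.4, 94.8 and 87.5 at 12 months. The groups came close to each other but did not overlap (log2 fold change -0.69, SE 0.16, unadjusted p = 0.000248). Gprin3, an inducer of neurite outgrowth regulated by G proteins, had 75.0, 84.0, 78.6 and 77.0 at 3 months and 49.9, 51.6, 54.0, 51.1 and 37.1 at 12 months (log2 fold change -0.69, SE 0.20). The 3-month libraries were close together, and replicate 5 of 12 months lay below the other 4 of its age. Gpr75, an orphan G protein-coupled receptor, had 122 ± 11.2 (SD, n = 4) and 87.0 ± 7.37 (SD, n = 5), and Acvr2a, an activin receptor, had 236 ± 12.9 and 179 ± 28.8. Il2ra, the alpha chain of the interleukin-2 receptor, had 123 ± 13.0 and 77.8 ± 11.0, with a log2 fold change of -0.66.

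Rnd3, a small GTPase that lowers actomyosin contraction, had 683, 792, 690.1 and 730.4 at 3 months and 522, 548, 591, 568 and 628 at 12 months, apart in every library at a small fold (log2 fold change -0.34, SE 0.10). Tnik, a kinase of Wnt and postsynaptic signalling, differed by less again, with 1884 ± 90.7 and 1589 ± 44.5. The last of the 10 were Tmem136 (log2 fold change -0.61) and Ccdc117 (-0.55). Adjusted p values of the 10 genes lay between 0.492 and 0.559.

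Ppp1r1c, an inhibitor subunit of protein phosphatase 1, had 93.4, 136, 93.4 and 103 at 3 months and 53.8, 64.6, 72.6, 66.8 and 82.2 at 12 months. Tagln2, an actin-binding protein, had 785, 888, 673 and 1081 against 536, 427, 420.0, 403 and 499. Neither gene had overlapping ages (log2 fold change -0.65, SE 0.20 and -0.91, SE 0.33). Sfrp1, a secreted Wnt antagonist, had 507, 398, 409.9 and 292 at 3 months and 356, 236, 239, 316 and 285 at 12 months, and only replicate 4 of 3 months lay within the 12-month range. Without that library the log2 fold change of Sfrp1 went from -0.49 to -0.61 and its unadjusted p from 0.0041 to 0.000575 (adjusted p = 0.596).

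**Figure D1:**
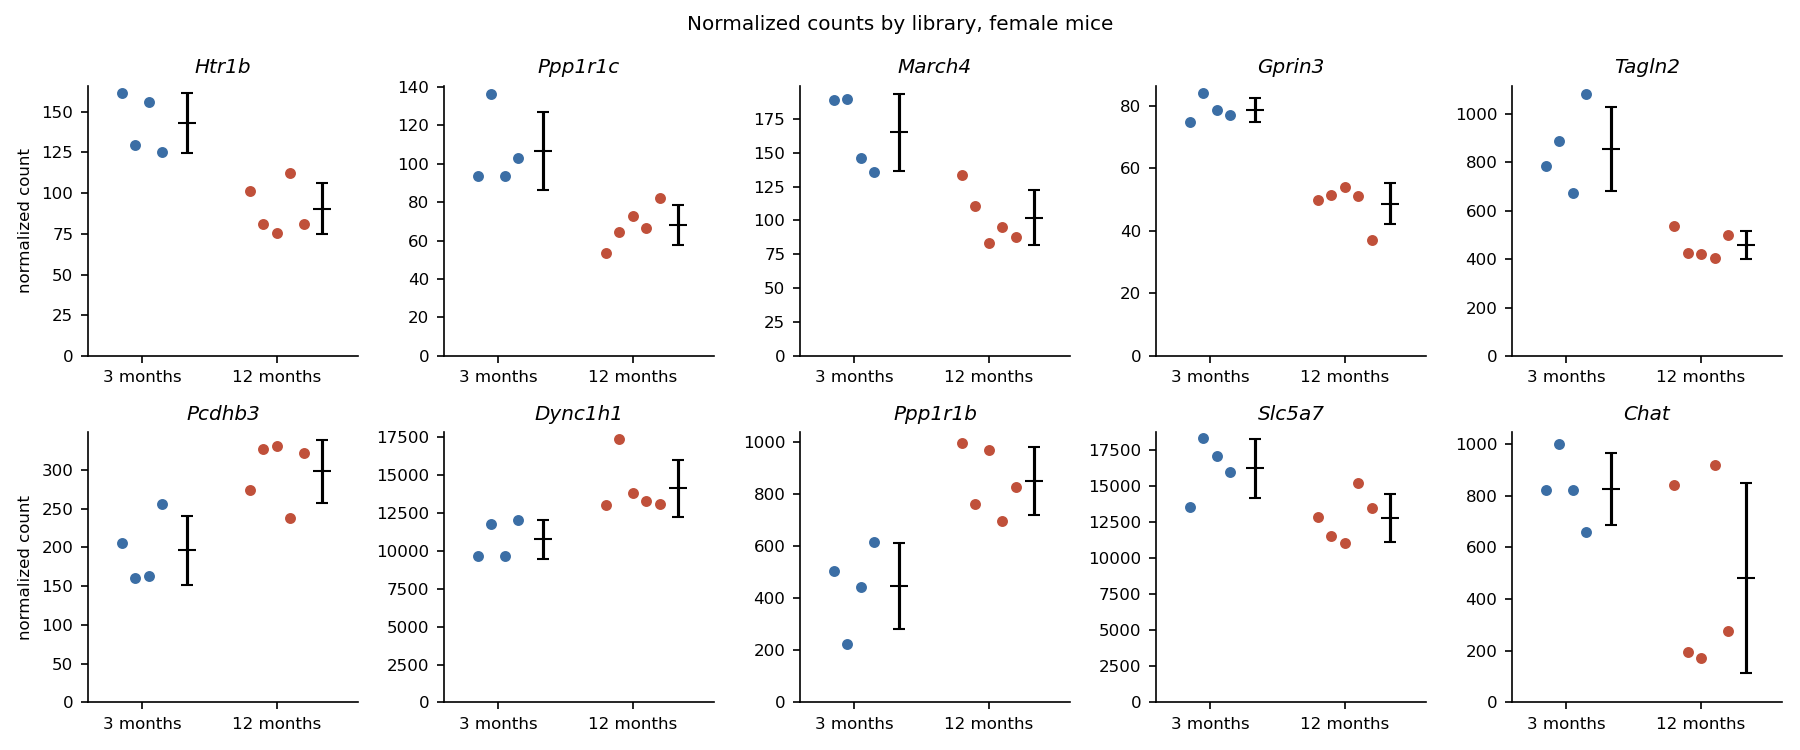
Normalized counts (vertical axes, from 0) of 10 genes in each library of 3-month-old (blue, n = 4) and 12-month-old (red, n = 5) females, with the mean and SD as black bars. Htr1b, Ppp1r1c, March4, Gprin3 and Tagln2 were lower and Dync1h1 and Ppp1r1b higher in every 12-month library, while Pcdhb3 and Slc5a7 overlapped and Chat split the 12-month libraries into values of 841 and above and of 276 and below.

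Among the genes higher at 12 months chosen by the same rule, some are neuronal and others belong to immune cells. Ppp1r1b, which encodes DARPP-32, an inhibitor of protein phosphatase 1 downstream of dopamine, had 505, 226, 442 and 617 at 3 months and 997, 759, 968, 697 and 828 at 12 months. Every 12-month library was above every 3-month library (log2 fold change 0.92, SE 0.25, unadjusted p = 0.000857, adjusted p = 0.499). Map3k5, the stress kinase ASK1, had 468, 416, 392 and 445 against 480.2, 556, 605, 494 and 544, a log2 fold change of 0.32 (SE 0.09). Gdpd3, a lysophospholipase D, had 41.5 ± 8.44 (SD, n = 4) and 89.0 ± 26.0 (SD, n = 5), and its lowest 12-month value, 51.9, was 1 count above the highest 3-month value, 50.9.

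Ripk2, a kinase of NOD receptor signalling, had 44.4 ± 4.51 and 69.2 ± 11.0. Wdr31 had 63.0 ± 10.1 and 95.2 ± 12.3, and Tmem81, a transmembrane protein, 111 ± 14.2 and 173 ± 20.4. The remaining 4 were Aif1, Lpl, Il6ra and Lag3, whose highest values were all in replicates 1 and 2 of 12 months. Without these 2 libraries their log2 fold changes went from 2.64 to 1.23, from 2.67 to 0.87, from 1.41 to 0.78 and from 2.09 to 0.77, whereas those of Ppp1r1b (0.89), Gdpd3 (1.02), Map3k5 (0.35), Ripk2 (0.60), Wdr31 (0.60) and Tmem81 (0.63) stayed close to those of all 9 libraries.

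Receptors for the slow transmitters had mostly negative log2 fold changes. Of 23 serotonin, noradrenaline and dopamine receptor genes tested (of 28 listed), 17 were negative, with a median of -0.21, and 8802 of all 17481 genes were negative. The summed count of the 23 was lowest in replicates 2, 3 and 5 of 12 months (5794, 6011 and 6552, against 7296 and 7437 in replicates 1 and 4). These were the libraries with low Chat counts, Htr1b was lowest in them too, and their part was not tested. Besides Htr1b, Adra1b, an alpha-1 adrenoceptor that raises motor neuron excitability, had an unadjusted p under 0.05 (477 ± 30.9 against 419.8 ± 24.4, log2 fold change -0.18). Over all genes, 2.54% were lower by the same threshold. Of 12 acetylcholine receptor genes tested (of 20 listed), 8 were negative, with a median of -0.26, and 3 had an unadjusted p under 0.05, all nicotinic subunits and all lower (2.54% of all genes). The summed count of the 12 was lowest in replicates 2 and 3 of 12 months (3443 and 3607, against 4609 and 4967 in replicates 1 and 4), which also had low Chat counts, and the part of these libraries was not tested. Chrnb2, the beta2 subunit, had 1598, 1706, 1522 and 1454 at 3 months and 1319, 1129, 1181, 1516 and 1338 at 12 months, with replicate 4 of 12 months inside the 3-month range (log2 fold change -0.28, SE 0.13). Chrnb4 and Chrna5, which lie in the same cluster on chromosome 9, had low counts. Chrnb4 had 20.8 ± 9.27 and 9.81 ± 2.21, and Chrna5 9.59 ± 5.60 and 3.36 ± 2.05.

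Of 21 GABA and glycine receptor genes, 17 were negative (median -0.13), and of 25 glutamate receptor genes, 18 (median -0.09). None of the glutamate receptor genes had an unadjusted p under 0.05. Gabrg3, the gamma3 subunit of the GABA-A receptor, had 167, 158, 143 and 100.4 at 3 months and 122, 94.9, 72.6, 113 and 108 at 12 months. Only replicate 4 of 3 months lay within the 12-month range, and without it the log2 fold change of Gabrg3 went from -0.47 to -0.61 (unadjusted p = 0.00391 and adjusted p = 0.596 by edgeR).

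Of 45 potassium channel genes tested, 33 were negative (median -0.13). Kcnn3, the SK3 channel of the afterhyperpolarization, had 205, 244, 153 and 121 at 3 months and 161, 107, 75.7, 132 and 135 at 12 months, with overlap (log2 fold change -0.55, SE 0.25). Kcna1, the Kv1.1 channel of axons, ran the other way, with 1526 ± 96.1 (SD, n = 4) and 2569.7 ± 1134 (SD, n = 5). Its high values were 3748, 3669 and 2550.2 in replicates 2, 3 and 5, the libraries with the low Chat counts, while replicates 1 and 4 had 1422 and 1459.9.

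Of 30 sodium, calcium and HCN channel genes, 22 were negative (median -0.10). Scn2b, an accessory sodium channel subunit, had 1590.1 ± 141 against 1298 ± 154 (log2 fold change -0.29), and Hcn4, a pacemaker channel, 229 ± 26.9 and 182 ± 32.9 (-0.33). Of 47 synapse scaffold and adhesion genes, 31 were negative (median -0.08). Shank2, a postsynaptic scaffold, had 181 ± 20.5 and 135 ± 25.5 (-0.41), and Dlg3, a PSD-95 relative, 952 ± 68.9 and 824 ± 93.2 (-0.21). Across all these neuronal lists the medians were small, and unadjusted p values under 0.05 were 0 to 3 per list (over all genes, 3.42% were higher and 2.54% lower). With offsets for transcript length in the fit, the medians were -0.17 for serotonin, noradrenaline and dopamine receptors and -0.23 for acetylcholine receptors. They were -0.13 for GABA and glycine receptors and -0.04 for glutamate receptors. Potassium channels, the other channels and the synapse genes each had -0.07. Genes of these lists share the libraries, so a shift of 1 library moves many of them together.

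The beta protocadherins, clustered adhesion genes of chromosome 18 by which neurites tell self from other, leaned upward. Of 21 tested, 17 had a positive log2 fold change (median 0.08) and 3 an unadjusted p under 0.05, all higher (3.42% of all genes). Pcdhb3 had 205, 161, 163 and 256 at 3 months and 274, 326, 330.4, 237 and 322 at 12 months. Replicate 4 of 3 months was the only 3-month library inside the 12-month range (log2 fold change 0.60, SE 0.15, unadjusted p = 0.000449, adjusted p = 0.492). Without that library Pcdhb3 did not overlap, and its log2 fold change was 0.75 (unadjusted p = 5.01e-05, adjusted p = 0.317). Pcdhb6 had 132 ± 8.30 (SD, n = 4) and 176 ± 24.8 (SD, n = 5) without overlap, and Pcdhb8 had 96.0 ± 25.6 and 139.9 ± 37.1 with overlap. Pcdhb10 had 82.4 ± 9.62 and 99.3 ± 13.9 (log2 fold change 0.27). Without replicate 4 of 3 months, 5 members had an unadjusted p under 0.05 upward and 1 downward (3.92% and 3% of all genes). The genes of this cluster are similar in sequence, so reads may have been split between them.

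Among the motors of axonal transport, 16 of 37 genes were positive (median -0.03), and 2 had an unadjusted p under 0.05 upward, a share near that of all genes (3.42%). Both are subunits of cytoplasmic dynein. Dync1h1, the dynein heavy chain, had 9664, 11753, 9661 and 12008 at 3 months and 12996, 17405, 13781, 13295 and 13066 at 12 months, higher in each 12-month library (log2 fold change 0.39, SE 0.14, unadjusted p = 0.00804, adjusted p = 0.691). Dync1i2, an intermediate chain, had 3437 ± 291 and 4504 ± 815 with overlap. Its high values were 5288, 5218 and 4726 in replicates 2, 3 and 5 of 12 months, the libraries with low Chat counts. Replicates 1 and 4, with 3583 and 3706, lay within the 3-month range. Among proteasome and autophagy genes, 39 of 50 were positive (median 0.14), and 4 had an unadjusted p under 0.05, all higher (3.42% of all genes). The summed count of the 50 was highest in replicates 2, 3 and 5 of 12 months (244491, 251791 and 253084, against 211516 and 224992 in replicates 1 and 4), the libraries with low Chat counts, and the part of these libraries was not tested. Psmd1 and Psmd2, scaffold subunits of the 19S cap, had log2 fold changes of 0.39 and 0.18, Atg7, the enzyme that activates autophagy conjugation, 0.32, and Psmb8, an immunoproteasome subunit that interferon induces, 1.24. Psmb8 was highest in replicates 1 and 2 of 12 months (79.5 and 106), and its log2 fold change was 0.56 without them. Without replicate 4 of 3 months, 9 of the 50 had an unadjusted p under 0.05, all higher (3.92% of all genes in that setting).

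Of the 23 genes that the study names for this series, 7 were higher and 4 lower with an unadjusted p under 0.05 (3.42% and 2.54% of all genes). Among those not yet described, Skiv2l, a helicase of RNA decay, had 1644 ± 149 (SD, n = 4) and 1972 ± 127 (SD, n = 5) without overlap (log2 fold change 0.26). Stat6, a transcription factor of interleukin-4 signalling, had 216 ± 32.0 and 286 ± 30.5 (0.40), and Adamtsl5, a matrix protein, 399.8 ± 92.7 and 534 ± 68.0 (0.42). Both overlapped only through replicate 4 of 3 months, without which the values were 0.51 and 0.58. Vps18, an endosomal tethering subunit, had a log2 fold change of 0.15 (SE 0.09), Cdk2ap1 -0.06 (SE 0.08), Stat3 -0.07 (SE 0.11) and Socs3, a STAT3 feedback inhibitor, 0.16 (SE 0.36). Cd63, a tetraspanin of endosomes, had 0.43 (SE 0.32), Vim, the intermediate filament vimentin, 0.43 (SE 0.47) and Serpinb1a, an elastase inhibitor, -0.25 (SE 0.48). The study chose these 23 genes on the same series, so their direction here is not independent evidence.

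**Figure D2:**
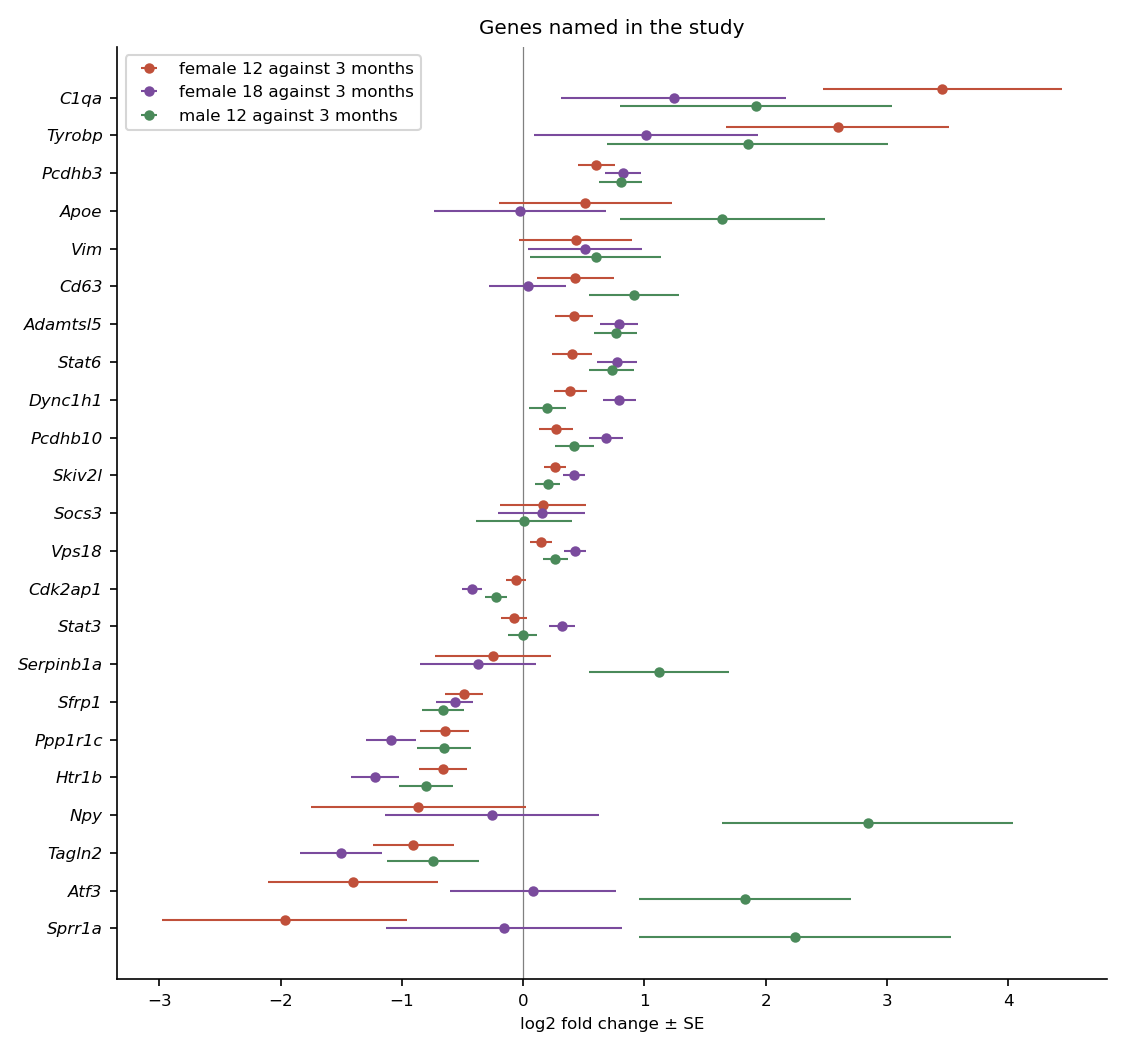
Log2 fold change (horizontal axis, with SE as bars) of 23 genes named in the study, for female 12 against 3 months (red), female 18 against 3 months (purple) and male 12 against 3 months (green). Both female comparisons use the same 3-month libraries. Htr1b, Ppp1r1c, Sfrp1 and Tagln2 lay below 0 in all 3 comparisons, and Atf3 and Sprr1a lay below 0 at 12 months in females and above 0 in males.

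Genes of microglia had the largest median log2 fold change of any list apart from the adipocyte genes, a list written after values were seen. The microglial list, like the others, was chosen with earlier results of these data known. All 15 markers were tested, all 15 had a positive log2 fold change with an unadjusted p under 0.05 (3.42% of all genes), none passed the adjusted threshold in edgeR, and the median was 2.78. The summed count of the 15 was 2025, 891, 752 and 1090 at 3 months and 8828, 21391, 1047, 3334 and 2382 at 12 months. Replicates 1 and 2 of 12 months held most of it, replicates 4 and 5 lay above the 3-month range by less, and replicate 3 lay within that range. Replicates 1 and 2 also had the highest library totals of 12 months, and replicate 3 the lowest. With the library total as a term in the fit, the log2 fold change of Cx3cr1 went from 3.28 to 2.62. That of Trem2 went from 3.34 to 2.51 and that of Aif1 from 2.64 to 2.32. The part of the totals in these counts was not tested further. None of the 15 was at 0 in any library. Cx3cr1, the fractalkine receptor, had 89.9, 27.5, 21.6 and 27.4 at 3 months and 398, 1299, 80.3, 134 and 118 at 12 months (3.28 on the log2 scale, SE 0.83, adjusted p = 0.492 by edgeR). Trem2, a lipid receptor of microglia, had 43.8, 19.3, 15.9 and 23.5 against 294, 814, 29.3, 98.1 and 69.8. Aif1, which encodes IBA1, was the 1 marker that did not overlap, with 25.4, 12.4, 21.6 and 17.0 against 67.8, 396, 49.4, 37.9 and 48.6. Tmem119, a marker of resident microglia, had 77.3, 28.9, 19.4 and 20.9 against 298, 479, 13.9, 71.7 and 46.8.

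Of the 8 genes that DESeq2's Wald test called, Cx3cr1, Aif1 and Ctss, a lysosomal cysteine protease, are microglial markers of the list (log2 fold changes 3.30, 2.67 and 3.56 by DESeq2). Ctss had 264, 93.6, 56.9 and 139.6 at 3 months and 1752, 5222, 148, 585 and 408 at 12 months. Olfml3, an extracellular matrix protein known from microglia, was called as well (58.8, 34.4, 28.5 and 20.9 against 217, 311, 27.8, 112 and 63.6). Ccl3, a chemokine, had no count in any 3-month library and 8.57, 17.2, 4.63, 9.89 and 5.30 normalized counts at 12 months, at least 2.44-fold higher on average than 3 counts per library. The others were Pck1, Fabp4 and Gm48898, a gene of unknown function with 27.9 ± 6.47 and 66.9 ± 24.5 and no overlap. All 8 had DESeq2's adjusted p = 0.0489. Fabp4, Gm48898 and Ctss were past the 5 that the naming rule takes and were named after their values were seen.

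Without replicates 1 and 2 of 12 months, a setting chosen after the data were seen, the median of the 15 markers was 1.29, and 1 of them had an unadjusted p under 0.05 (in that setting 1.66% of all genes were higher and 2.31% lower by the same threshold). The log2 fold change of Cx3cr1 was then 1.41, that of Aif1 1.23 and that of Tmem119 0.30. In bulk libraries more microglia and more RNA per microglial cell cannot be told apart, and neither can bound RNA of tagged neurons and untagged RNA that stayed on the beads.

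Complement followed these genes. Of 27 complement genes tested (of 38 listed), 23 had a positive log2 fold change (median 0.51) and 9 an unadjusted p under 0.05, all higher (3.42% of all genes), 4 of which are also microglial markers (C1qa, C1qb, C1qc and Itgam). C1qa, a chain of C1q, had 206, 62.0, 45.5 and 141 at 3 months and 1249.6, 4039.8, 108, 492 and 347 at 12 months, with replicate 3 inside the 3-month range (3.45 on the log2 scale, SE 0.99, adjusted p = 0.499 by edgeR). Tyrobp, the adaptor of Trem2, had 39.2, 5.51, 4.55 and 22.2 against 139, 313, 3.09, 57.7 and 26.5. Without replicates 1 and 2 of 12 months the complement median was 0.17 and no member had an unadjusted p under 0.05. Of 40 interferon response and antigen presentation genes, 30 were positive (median 0.20), 7 had an unadjusted p under 0.05 upward and 1 downward (3.42% and 2.54% of all genes). H2-T23, a non-classical MHC class I gene, had 236, 196, 249 and 273 at 3 months and 306, 495, 330.4, 282 and 311 at 12 months without overlap, Bst2, an antiviral membrane protein, had log2 fold change 1.29 and Tap1, a peptide transporter, 0.56. Without the same 2 libraries the median was 0.04, and none was higher with an unadjusted p under 0.05.

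The microglial genes were high in the same libraries, and the stretches before their start sites are shown for the macrophage genes Itgam, Trem2, Aif1 and Laptm5 and for Cx3cr1. Of the 15 markers, 10 had a promoter in the RefSeq table (GRCm38.p6). The letters GAGGAA, or TTCCTC on the other strand, the core bound by PU.1 and other ETS factors, were found in the 250 bases before the start in 8 of the 10, against 25.9% of 27025 genes, and AGGAAGT, which can overlap it by 5 letters, in 3 of the 10 against 8.80%. Both motifs were chosen with the list in view, and a match is no evidence of binding. The last 120 bases before each RefSeq start follow, 5′ to 3′ on the gene's strand, with GAGGAA and TTCCTC in capitals. By the GENCODE M21 coordinates, the stretches of Laptm5 and Cx3cr1 lie inside the gene, and that of Aif1 overlaps its first bases. Itgam lies at chr7:128062520-128062639 (plus strand), Trem2 at chr17:48346281-48346400 (plus), Aif1 at chr17:35176053-35176172 (minus), Laptm5 at chr4:130913196-130913315 (plus) and Cx3cr1 at chr9:120068297-120068416 (minus).
Itgam: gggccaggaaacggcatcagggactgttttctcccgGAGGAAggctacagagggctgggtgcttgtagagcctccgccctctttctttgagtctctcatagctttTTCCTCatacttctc
Trem2: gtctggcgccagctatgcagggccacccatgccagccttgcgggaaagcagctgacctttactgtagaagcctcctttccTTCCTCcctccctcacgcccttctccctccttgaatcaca
Aif1: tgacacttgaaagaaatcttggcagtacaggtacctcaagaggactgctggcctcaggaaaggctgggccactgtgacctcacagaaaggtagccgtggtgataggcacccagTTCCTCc
Laptm5: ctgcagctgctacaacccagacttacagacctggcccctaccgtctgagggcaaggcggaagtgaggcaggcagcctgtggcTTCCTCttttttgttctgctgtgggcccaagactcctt
Cx3cr1: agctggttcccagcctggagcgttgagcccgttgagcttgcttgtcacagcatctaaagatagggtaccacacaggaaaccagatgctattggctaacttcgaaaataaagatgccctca
Cx3cr1 held neither motif in the 250 bases, and its counts followed the same libraries as those of the other 4.

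Fat cell genes were high in 1 library. Of 15 adipocyte genes, a list written after values were seen, 12 were tested, and their summed count was 393, 329, 397 and 419 at 3 months and 4541, 804, 460.1, 422 and 491 at 12 months. Replicate 1 of 12 months stood apart, replicate 2 came next, and the other 3 lay just above the 3-month range. Fabp4, a fatty acid binding protein, had 1442 in replicate 1, 119 in replicate 2 and 8.24 to 27.4 in the other 3, against 5.51 to 22.2 at 3 months. Ucp1, the uncoupling protein of brown fat, had 493 in replicate 1 and 16.4 in replicate 2 and at most 0.884 in the others, against at most 3.42 at 3 months. Pck1, a key enzyme of gluconeogenesis and glyceroneogenesis, had 495 in replicate 1 against 7.06 ± 4.01 (SD, n = 4) at 3 months, and Adipoq, which encodes adiponectin, 74.1 against at most 2.61. Lpl, lipoprotein lipase, had 447 in replicate 1 and 226 in replicate 2, and 13.0 to 35.7 at 3 months. Without replicates 1 and 2 of 12 months the median log2 fold change of the 12 genes went from 3.63 to 0.05. The filter on low counts took the mean over all libraries, so genes such as Ucp1 and Adipoq could pass it through replicate 1. A high median may thus be partly built into which of these genes were tested.

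Markers of other glia varied between animals more than between ages. Gfap, the astrocyte filament, had 5409, 1247, 5155 and 2131 at 3 months and 10389, 1225, 882, 3349 and 2073 at 12 months (log2 fold change 0.04, SE 0.57). Mbp, myelin basic protein, had 26893, 11171, 26103 and 9999 against 39500.3, 11726, 9289, 19668 and 11822 (-0.01, SE 0.38), and Aqp4, the astrocyte water channel, had a log2 fold change of -0.35 (SE 0.54). Replicates 1 and 3 of 3 months and replicate 1 of 12 months were the high libraries for Gfap and Mbp. Apoe, a lipid carrier of astrocytes and microglia, followed the same libraries, with 12598, 1981, 9720.1 and 4484 at 3 months and 24849, 8641, 2066, 8339.6 and 7405 at 12 months (log2 fold change 0.51, SE 0.71). The medians of the 13 astrocyte and 13 oligodendrocyte markers were -0.04 and -0.13, and without replicates 1 and 2 of 12 months -0.68 and -0.59.

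Gpr17, a receptor of newly formed oligodendrocytes, was the only 1 of the 9 oligodendrocyte precursor genes with an unadjusted p under 0.05. It had 205, 49.6, 132 and 20.9 at 3 months and 87.3, 12.3, 0, 23.9 and 11.5 at 12 months (log2 fold change -1.87, SE 0.73, unadjusted p = 0.016, adjusted p = 0.737), and -2.99 without replicates 1 and 2 of 12 months. Col3a1, a fibrillar collagen, had 254, 88.1, 41.0 and 14.3 against 61.6, 9.82, 3.09, 32.1 and 13.3 (unadjusted p = 0.0359 and adjusted p = 0.737 by edgeR). The interneuron markers Slc17a6 and Slc32a1, vesicular transporters of glutamate and of GABA and glycine, had log2 fold changes of -0.19 (SE 0.16) and -0.27 (SE 0.35), and Lhx1, an interneuron transcription factor, had -0.70 (SE 0.33) with 28.7 ± 17.0 and 17.7 ± 3.18. The markers of endothelium and pericytes (15 genes, median 0.26), meningeal fibroblasts (13, 0.43), ependyma (8, 0.41), Schwann cells (7, -0.15), skeletal muscle (14, 0.37), bone and cartilage (14, 0.19), glutamatergic interneurons (13, -0.06) and inhibitory interneurons (13, -0.25) had at most 1 gene each with an unadjusted p under 0.05. Without replicates 1 and 2 of 12 months the medians of endothelium and pericytes (-0.13), meningeal fibroblasts (-0.35) and skeletal muscle (-0.29) turned in direction.

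**Figure D3:**
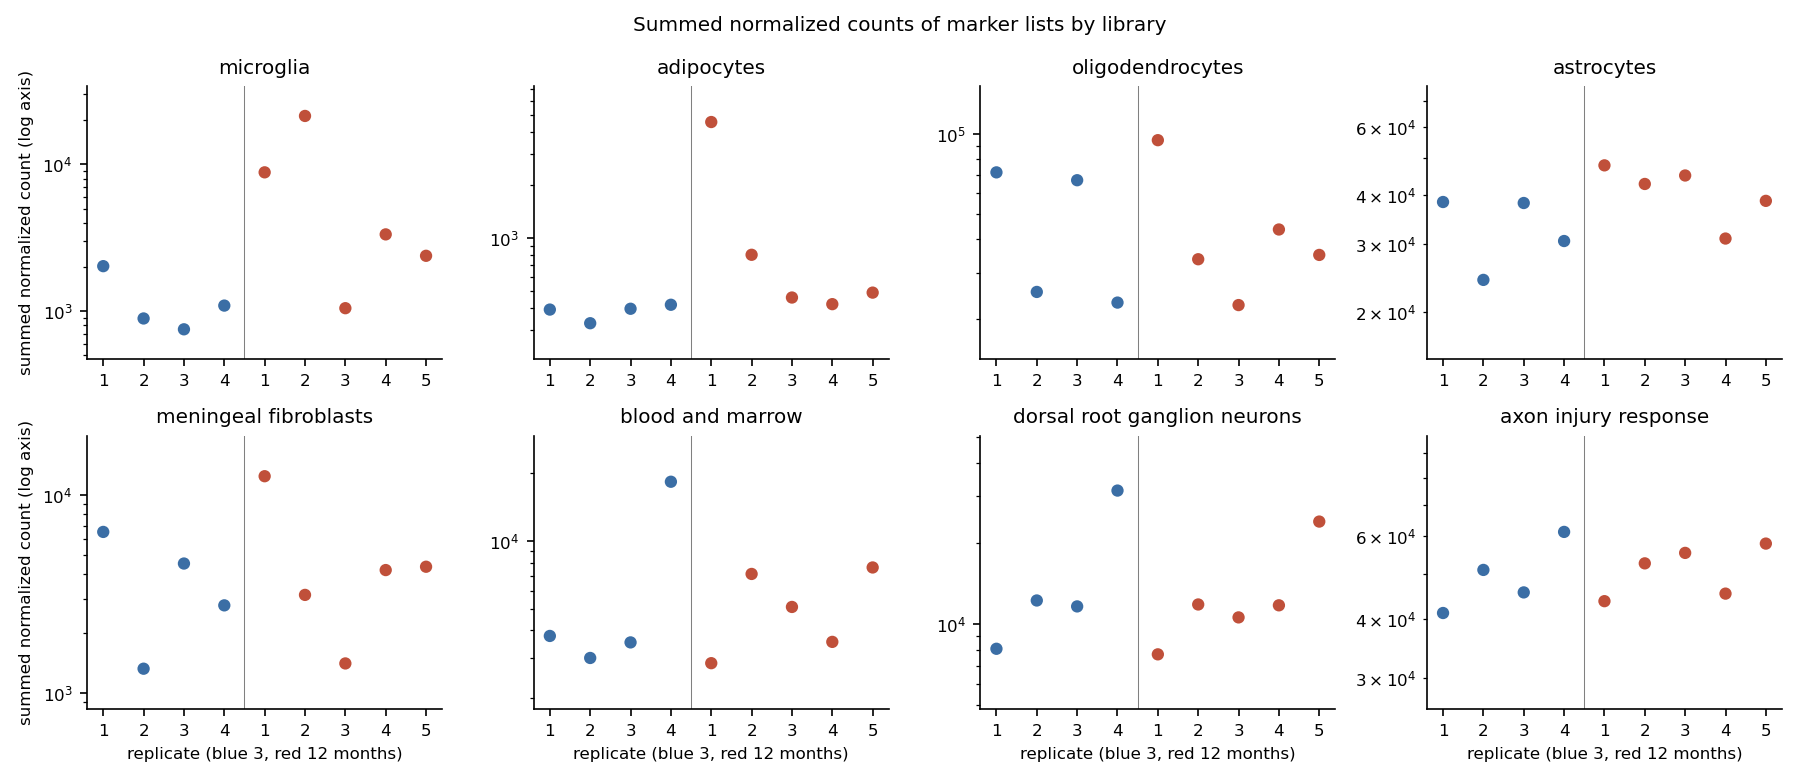
Summed normalized count (vertical axes, log scale) of 8 gene lists in each library, blue for 3 months (replicates 1 to 4) and red for 12 months (replicates 1 to 5). Microglial genes were highest in replicates 1 and 2 of 12 months and adipocyte genes in replicate 1, while blood genes were highest in replicate 4 of 3 months, as was the sum of the dorsal root ganglion genes, which is almost all Calca.

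The response to axon injury depended on replicate 4 of 3 months. Atf3, a transcription factor induced by axotomy, had 36.9, 30.3, 27.3 and 616 at 3 months and 39.8, 28.6, 49.4, 69.2 and 146 at 12 months. Sprr1a, a regeneration-associated protein, had 4.61, 12.4, 17.1 and 1003 against 14.0, 19.6, 26.2, 56.9 and 210.4. Npy, neuropeptide Y, had 53.0, 15.1, 53.5 and 614 against 61.6, 24.5, 35.5, 74.2 and 304. In all 3 genes replicate 4 stood far above the other 3-month libraries, and replicate 5 was the highest of 12 months. The log2 fold changes were -1.40 (SE 0.70), -1.97 (SE 1.01) and -0.86 (SE 0.88), and without replicate 4 of 3 months they were 1.08, 2.53 and 1.29. That library was left out because its injury genes were high, so the upward turn follows from the choice and is given as a description, with no test.

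Over the 36 injury genes tested, the median went from -0.06 to 0.16 without it, which follows from the same choice. In the whole comparison 1 gene of the list was higher and 1 lower with an unadjusted p under 0.05 (3.42% and 2.54% of all genes). The higher was Il6ra, a receptor subunit for interleukin-6, with its highest values in replicates 1 and 2 of 12 months (93.5 and 181). The lower was Jun, a transcription factor of the injury response with 4030.0 ± 615 and 3442 ± 150.1. Fos, an activity-induced factor, had 608, 679, 391 and 1028 at 3 months and 440.4, 389, 508, 372 and 422 at 12 months, and its log2 fold change went from -0.67 to -0.39 without replicate 4.

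Blood genes were high in replicate 4 of 3 months too. The 18 blood and marrow genes summed to 3776, 3014, 3535 and 18309 at 3 months and 2858, 7124, 5082, 3554 and 7612 at 12 months, and their median log2 fold change went from -0.22 to 1.41 without replicate 4 of 3 months. Hbb-bs, a beta globin, had 7895 in that replicate and 158 to 611 in the other 3. The 8 dorsal root ganglion markers tested summed to 8084, 12239, 11632 and 31451 against 7707, 11827, 10585, 11742 and 24102, nearly all of it Calca. Calca, the calcitonin gene-related peptide gene, which motor neurons express too, had 30752 in replicate 4 of 3 months and 23482 in replicate 5 of 12 months, against 7154 to 11515 in the other 7 libraries. The other 7 ganglion markers summed to 661, 724, 602 and 699 at 3 months and 553, 708, 670.1, 589 and 620 at 12 months, and did not stand out in either library. Of the 13 ganglion markers listed, Scn10a, Scn11a, Trpv1, Mrgprd and Prdm12 were below the mean count of 5. The part of blood cells in the injury values was not tested.

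Ribosomal protein and oxidative phosphorylation genes were high in replicates 2, 3 and 5 of 12 months. Of 80 ribosomal protein genes, 77 had a positive log2 fold change (median 0.39) and 1, Rps3a1, an unadjusted p under 0.05. The summed count was 247436, 253599, 236458 and 290062 at 3 months and 241486, 394760, 392727, 248907 and 355375 at 12 months. Of 72 nuclear genes of oxidative phosphorylation, 69 were positive (median 0.36) and none had an unadjusted p under 0.05. Cox4i1, a subunit of cytochrome oxidase, had 27445 ± 2645 (SD, n = 4) and 36786 ± 11703 (SD, n = 5), with its 3 highest values, 46304, 50619 and 36297, in those libraries. The mitochondrial gene mt-Co1 did the reverse in 2 of them, with 1779.7 in replicate 2 and 1339 in replicate 3, against 3515 to 9765 at 3 months.

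The same 3 libraries had the most negative length slopes. The length slope is the slope, over 12254 genes, of a library's log2 level relative to the mean of all libraries on the log2 transcript length, so that a negative value means more signal from short transcripts. It was 0.0632, 0.0292, 0.00348 and -0.0633 at 3 months and 0.0180, -0.0841, -0.115, 0.00266 and -0.0944 at 12 months, with means of 0.00816 and -0.0546 (two-sided exact permutation test, p = 0.135). With offsets for transcript length in the fit, the medians were 0.30 for ribosomal protein and 0.25 for oxidative phosphorylation genes. The part of RNA quality in these values was not tested.

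**Figure D4:**
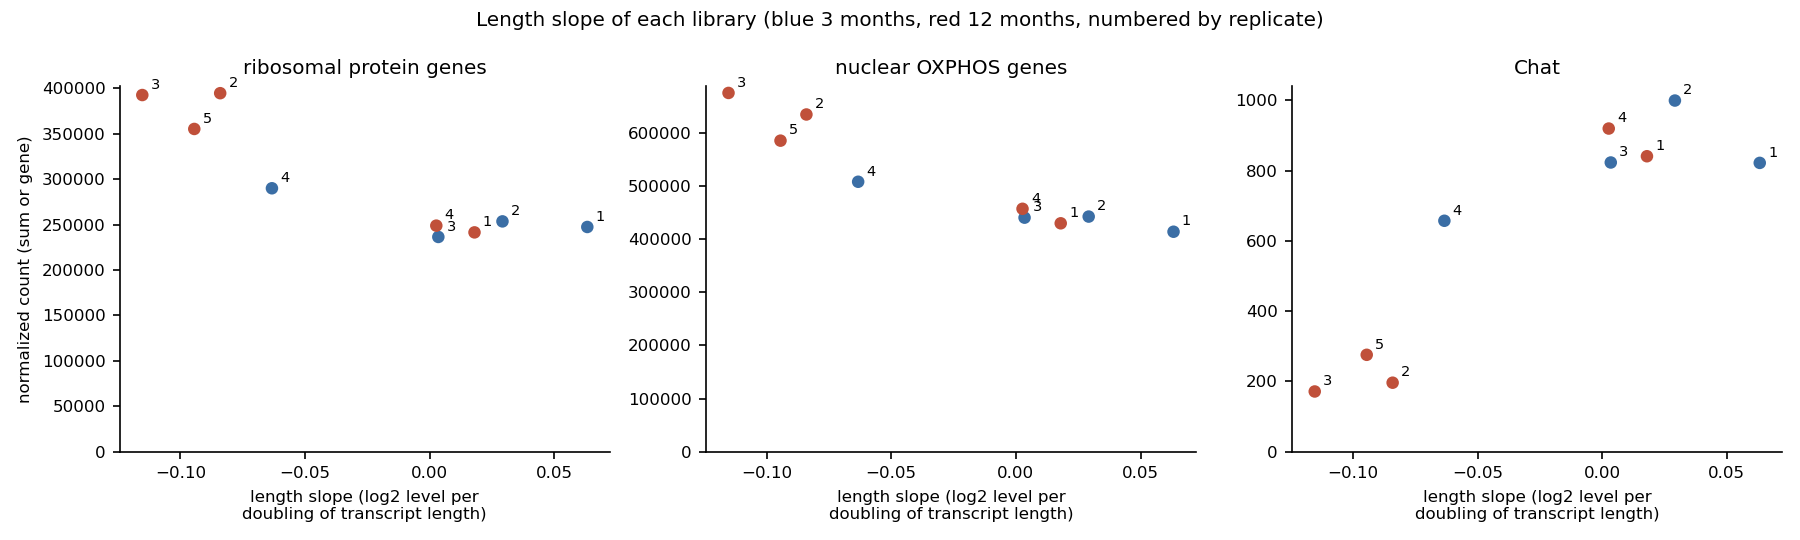
Length slope of each library (horizontal axes, log2 level per doubling of transcript length) against the summed normalized count of ribosomal protein genes, that of nuclear oxidative phosphorylation (OXPHOS) genes and the normalized count of Chat (vertical axes, from 0), blue for 3 and red for 12 months, numbered by replicate. Replicates 2, 3 and 5 of 12 months lay at slopes of -0.0841 and below, with the highest sums and the lowest Chat counts.

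Of 35 oxidative stress genes, 27 were positive (median 0.25, and 0.13 without replicates 1 and 2 of 12 months). Their summed count was highest in the same replicates 2, 3 and 5 of 12 months (128948, 139566 and 129275, against 101412 and 99261 in replicates 1 and 4). Gsta4, a glutathione transferase of lipid aldehydes, had 1237 ± 75.4 (SD, n = 4) and 1640.4 ± 85.7 (SD, n = 5), its lowest 12-month value, 1566, being above the highest 3-month value, 1339.9 (log2 fold change 0.41, SE 0.18, unadjusted p = 0.0287). Of 32 cholesterol genes, 2 had an unadjusted p under 0.05, both lower (2.54% of all genes), among them Idi1, an isomerase of the pathway, with 741, 687, 742 and 694 against 574, 291, 296, 645 and 459. Of 33 heat shock and unfolded protein response genes, Xbp1, the transcription factor of the endoplasmic reticulum response, had an unadjusted p under 0.05 (log2 fold change -0.34, SE 0.16). The medians of the heat shock (-0.01), clock (-0.01), steroid hormone (-0.01), senescence (0.06) and immediate early (-0.16) lists were small, and senescence and steroid hormone genes had none with an unadjusted p under 0.05. The 34 collagens (median 0.14, -0.01 without replicate 4 of 3 months and -0.26 without replicates 1 and 2 of 12 months) had 1 gene higher and 2 lower with an unadjusted p under 0.05 (3.42% and 2.54% of all genes), and the 10 mitochondrially encoded protein genes (median 0.24) had none.

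**Figure D5:**
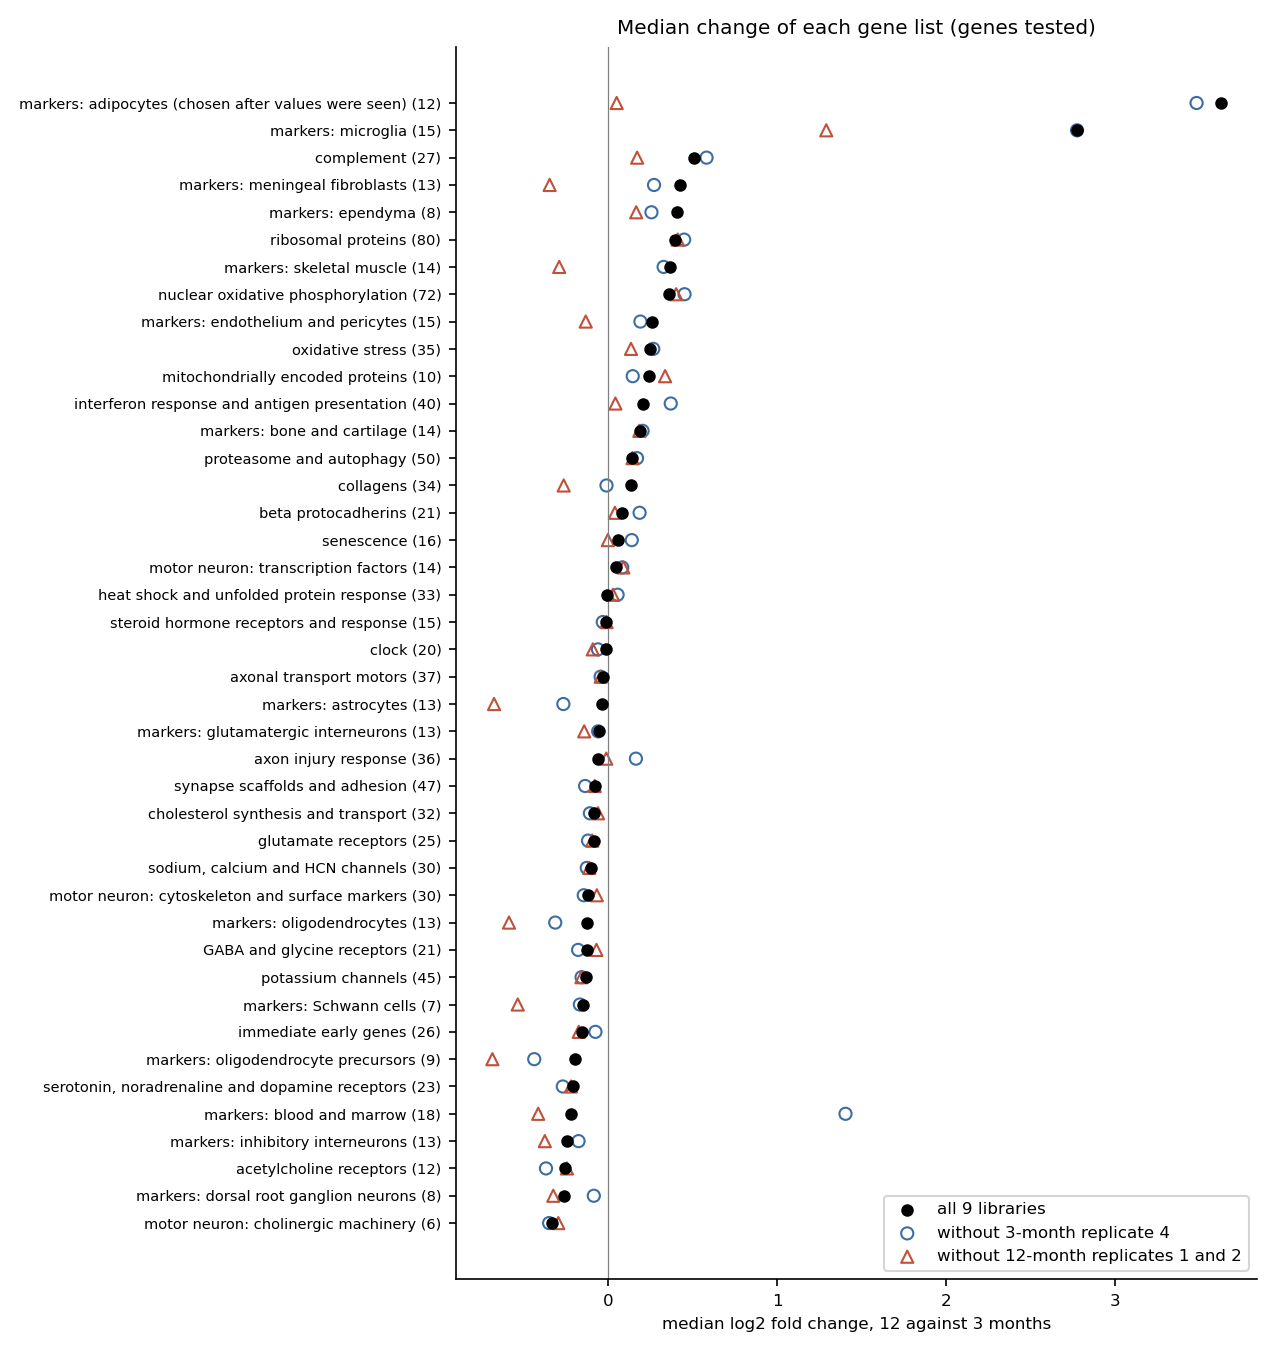
Median log2 fold change, 12 against 3 months in females (horizontal axis), of each gene list, with the number of genes tested in brackets, for all 9 libraries (black), without replicate 4 of 3 months (blue circles) and without replicates 1 and 2 of 12 months (red triangles). The adipocyte and microglial medians, 3.63 and 2.78, went to 0.05 and 1.29 without replicates 1 and 2 of 12 months, and the blood median went from -0.22 to 1.41 without replicate 4 of 3 months. The adipocyte list was written after values were seen.

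The female change from 3 to 12 months was also compared with that of males (3 libraries of 3 and 4 of 12 months) as a difference of differences in the same model. No gene passed the adjusted threshold with edgeR, and 321 genes (1.84%) had an unadjusted p under 0.05. Htr1b had a log2 fold change of -0.66 in females and -0.80 in males (difference 0.14, SE 0.30), Ppp1r1b 0.92 and 1.01 (difference -0.09, SE 0.37), Ppp1r1c -0.65 in both and Pcdhb3 0.60 and 0.80 (difference -0.20, SE 0.23). For these genes no difference between the sexes larger than its SE was seen, and the SE of the difference for Ppp1r1c was 0.33. Scn2b, Adra1b and Chrnb4 were negative in females and positive in males (differences -0.42, SE 0.17, -0.36, SE 0.13 and -1.74, SE 0.64). Tmem81 was 0.65 in females and -0.01 in males (difference 0.66, SE 0.26). Each of these genes had an unadjusted p between 0.00973 and 0.0209 by edgeR. All were named for a small p in the female comparison, which is part of this difference. Their small p for the difference can therefore follow from that choice. The difference for Atf3 was -3.23 (SE 1.12), which rests on replicate 4 of the 3-month females.

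Set beside the 18-month females, which are compared with the same 3-month libraries, some genes lay further from their 3-month level at 18 months and others lay nearer to it. Htr1b had 90.3 ± 15.6 (SD, n = 5) at 12 and 60.6 ± 16.8 (SD, n = 5) at 18 months, and Tagln2 457 ± 57.4 and 302 ± 95.6, from 857 ± 173 at 3 months. Dync1h1 had 14109 ± 1868 at 12 and 18663 ± 4190.4 at 18 months. March4 went from 165 ± 28.5 at 3 months to 102 ± 20.4 at 12 and 143 ± 14.8 at 18 months, Gprin3 from 78.6 ± 3.88 to 48.7 ± 6.67 and 68.1 ± 19.9, and Tnik from 1884 ± 90.7 to 1589 ± 44.5 and 1809 ± 107. Cx3cr1 had 406 ± 515 at 12 and 71.4 ± 28.9 at 18 months. The steps between 12 and 18 months were not tested. March4, Gprin3 and Tnik were picked for a small p and no overlap at 12 against 3 months, so values nearer to 3 months at 18 months can follow from that choice. Htr1b, Tagln2 and Dync1h1 are among the genes that the study chose on this same series.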

How the data were processed

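HA-immunoprecipitated RNA from whole spinal cords was sequenced in 32 libraries, 1 per animal. The authors trimmed reads, aligned them with HISAT2 and deposited whole-number counts per Ensembl gene made with HTSeq (GRCm38, Ensembl 93). Tool versions and strandedness are not given in the sources used here, so reads of overlapping genes (such as Slc18a3 and Chat, Chrnb2 and Adar, or Stat6 and Nab2) could not be told apart.

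Counts were analysed in R 4.3.3 with edgeR 4.0.16 (TMM factors, quasi-likelihood test, Benjamini-Hochberg adjustment) on 31 libraries in 7 groups, after a filter of a mean count of at least 5, which kept 17481 of 54232 gene identifiers. The single 24-month-old female library entered no test. Alternatives used DESeq2 1.42.0 and limma 3.58.1. Coordinates and lengths of genes are from GENCODE M21, and the promoter stretches are from the RefSeq table (GRCm38.p6). Totals of 14366779 to 26229439 counts set the precision, and floors cover counting error only. On simulated counts, drawn without shifts shared by many genes, 6.42% of the calls were false.

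The members and lists were chosen with earlier results of these data known. Named genes were those the study names, the 10 higher and 10 lower genes with the smallest p, no overlap and a mean count of at least 50, up to 4 per list, defining markers, and the first 5 calls of DESeq2. No pair of libraries held identical values (chi-square per gene 6.80 to 82.2 over 16 pairs within groups). Some genes that this rule names are not reported here.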

Additional observations from a re-analysis of the deposited data

Results flagged for a closer look

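Of 294 sets of library values of 1 age, 32 held a library whose gap to its neighbour exceeded Dixon's 95% critical value. The sets share libraries and include genes and lists chosen with earlier results known. Their share can therefore not be set against a rate by chance. Replicate 1 of 12 months was that library in 11 of the 32 sets, among them the adipocyte list, which was written after values were seen. Its normalized counts stood apart for the lists of collagens (2685), meningeal fibroblast markers (12464) and adipocyte markers (4541), and for Apoe (24849), Pck1 (495), Fabp4 (1442), Ucp1 (493), Adipoq (74.1), Gfap (10389), Aqp4 (1431) and Gpr17 (87.3). Replicate 2 of 12 months stood above its group for Dync1h1 (17405), Aif1 (396), Cx3cr1 (1299) and H2-T23 (495).

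Replicate 5 of 12 months stood apart for the mitochondrially encoded genes (47030.0), the dorsal root ganglion markers (24102, of which Calca made 23482 and the other 7 markers 620, inside the range of the other 12-month libraries), Sprr1a (210.4), Npy (304) and Calca (23482), and on the low side for Gprin3 (37.1). The library total of replicate 3 of 12 months (14366779) was low against its group. At 3 months, replicate 4 stood apart for the blood and marrow markers (18309), Atf3 (616), Sprr1a (1003), Npy (614), Hbb-bs (7895) and Adipoq (2.61, with none in the other 3). Replicate 1 was high for Cx3cr1 (89.9), Tmem119 (77.3) and Slc17a6 (2523), and replicate 2 was low for Dlg3 (849.6).

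The 24-month-old female library, which entered no comparison, had a summed normalized count of 63054 for the axon injury genes, above the highest 3-month female library (61324), and of 708 for the adipocyte genes, above 419.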

How the results depend on the processing

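No gene had an adjusted p under 0.05 in edgeR under any scaling, filter, covariate or left-out library tried (0 to 0 when 1 library was left out), whereas DESeq2's Wald test gave 8 and limma voom 2. For the difference between the sexes, DESeq2 and limma voom gave 1 gene each and edgeR 0, also when 1 library was left out. The 1041 genes with an unadjusted p under 0.05 became 3583 with voom, 646 with a mean count of at least 50, 1634 with no filter and 1692 with only the groups compared, and 596 to 1662 when 1 library was left out (596 without replicate 2 and 1662 without replicate 1 of 12 months). The 482 genes without overlap became 1159 without replicates 1 and 2 of 12 months, and 559 to 1356 when 1 library was left out. Fewer libraries overlap less by construction, and the other causes were not tested.

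Of 2024 pairs of 102 named genes and an alternative, 1974 kept direction and side of the threshold, 10 passed it and 40 turned in direction. With voom, Atf3 (0.31), Sprr1a (0.99), Npy (0.48), Gfap (-0.48), Calca (0.066) and Hbb-bs (0.93) turned. Mbp turned with no filter (0.0037) and with transcript length offsets (0.033). With the library total as a term, Apoe (-0.18), Isl1 (0.048) and Gfap (-0.49) turned. Without replicates 1 and 2 of 12 months, chosen after seeing the data, Apoe (-0.28), Cdk2ap1 (0.0044), Pck1 (-0.037), Ucp1 (-1.08) and Gfap (-0.73) turned. With 1 library left out, the log2 fold changes ran from -0.021 to 0.15 for Mnx1, -1.05 to 0.27 for Aqp4, -0.50 to 0.23 for Mbp, -0.28 to 0.046 for Slc17a6, -0.64 to 0.10 for Slc32a1, -0.12 to 0.053 for Isl1, -0.89 to 0.34 for Gfap, -1.92 to 1.08 for Atf3, -3.14 to 2.53 for Sprr1a, -1.89 to 1.29 for Npy, -0.63 to 0.33 for Calca, -1.37 to 1.65 for Hbb-bs, -0.032 to 0.64 for Vim, -0.13 to 0.93 for Apoe and -0.023 to 0.24 for Socs3.

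Replicate numbers are shared between the ages. The deviations of libraries of the same number had a correlation of 0.507 for replicate 1. For replicates 2, 3 and 4 it was -0.0585, -0.0478 and -0.297, and 1 library of 3 months correlated best with its own number. With the replicate block, 0 genes had an adjusted p under 0.05 and 938 an unadjusted one, the difference between the sexes had 0 calls, and of the named genes only Gfap turned (-0.13).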
